A study of Mus musculus with 64 samples.

Results

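The 32 genes described here are genes of oligodendrocytes, the cells that wrap central axons in myelin. They were taken by name, all 32 were matched to a gene ID, and they were drawn from 55414 gene rows in the acute experiment and 55573 in the continuous experiment. Pdgfra and Cspg4 mark oligodendrocyte precursors and were kept apart from the other 30 genes, which are called mature here. The name is loose, because 3 of them (Gpr17, Enpp6 and Bcas1) belong to newly formed oligodendrocytes and others, such as Olig1 and Olig2, specify the lineage. All 32 passed the filter on low counts in both experiments. Ninj2 did so through only 2 of the 4 groups in the acute experiment and 3 in the continuous one.

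Hippocampal RNA came from adult male WT mice and from AS mice (Ube3a m–/p+), which inherit a deletion of exon 5 of Ube3a from their mother and model Angelman syndrome. The parents were C57BL/6J males and 129sv females, and the mice were 10 to 18 weeks old. Neurons of AS mice lack UBE3A because they silence the paternal allele, whereas glia keep using it. In the acute experiment, 6 mice per genotype received 3 mg/kg corticosterone (CORT) subcutaneously and 6 received vehicle, and the left hippocampus was taken 3 h later. In the continuous experiment, 5 mice per genotype carried a subcutaneous pellet of 20 mg CORT and cholesterol for 5 days and 5 carried a pellet of cholesterol alone. H9, an AS vehicle mouse, and H13, a WT vehicle mouse, were left out of that fit because the study excluded them. This left 4, 5, 4 and 5 mice for WT vehicle, WT CORT, AS vehicle and AS CORT.

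CORT is the main glucocorticoid of mice and acts through the glucocorticoid receptor (GR), which oligodendrocytes and their precursors carry as most cells do. Precursors divide throughout adult life, some of them pass through a premyelinating state marked by Gpr17 and Enpp6, and these then switch on the myelin program under the transcription factors Sox10, Olig1, Olig2, Nkx6-2 and Myrf. Myelin itself is made of a small set of abundant proteins such as Mbp, Mobp, Mag, Mog and Cnp and of lipids such as galactosylceramide, and fiber tracts next to the hippocampus hold far more of it than the cell layers.

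Counts on genes numbered 19049461 to 21052967 per mouse in the acute experiment and 19112929 to 21783009 in the continuous hippocampus, and 3 counts corresponded to at most 0.157 CPM (counts scaled to library size by TMM), a floor for counting error only. Reads that could not be placed well numbered 1877 to 2237 in the acute libraries H1 to H16 and 2640 to 2850 in H17 to H24. The latter hold all 6 AS CORT mice and 2 of the 6 AS vehicle mice (H17 and H18). Fits of acute AS mice are therefore given with and without a term for these 8 libraries, except some alternative fits, such as those relative to Mbp. Fkbp5, a GR target, was at 58.6 to 70.6 CPM in acute WT vehicle and 103 to 129 CPM in WT CORT mice, and at 48.4 to 60.7 CPM in AS vehicle and 113 to 126 CPM in AS CORT mice. Whole-gene counts of Ube3a do not resolve the deleted exon and check nothing, with 63.0 to 84.6 CPM in acute WT vehicle mice and 64.3 to 79.6 CPM in acute AS vehicle mice. Tissue next to the hippocampus differed between libraries. Summed markers of the thalamus reached 1760 CPM in continuous H9 against at most 214 CPM in the mice of the fit, and those of the choroid plexus reached 12500 CPM in continuous H13, 2880 in H17, 1260 in H6 and 1060 in acute H6. Among acute mice, thalamic markers were highest in H11, a WT CORT mouse, at 147 CPM against 54.8 to 88.6 CPM in the others. Markers of Schwann cells, which make the myelin of peripheral nerves, summed to 0.605 to 1.57 CPM in the libraries of the fits. Expression was measured in bulk tissue, where fewer oligodendrocytes and less RNA per oligodendrocyte cannot be told apart.

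The 4 promoters below belong to genes on either side of the main split found under the CORT pellet: Opalin and Enpp6 lost expression relative to other oligodendrocyte genes, and Mal and Cldn11 gained it. Each is the 250 bases before the RefSeq start, written on the gene's strand (GRCm38.p6). Capitals mark a match to the E-box CAGATG or its reverse complement in Opalin and to the SOX motif AACAAT in Enpp6.
Opalin, chr19:41077114-41077363, minus strand: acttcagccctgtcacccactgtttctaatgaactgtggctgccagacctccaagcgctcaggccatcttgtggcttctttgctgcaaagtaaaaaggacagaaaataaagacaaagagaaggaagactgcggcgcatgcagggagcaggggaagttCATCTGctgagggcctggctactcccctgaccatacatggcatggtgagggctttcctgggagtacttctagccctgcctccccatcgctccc
Enpp6, chr8:46986637-46986886, plus strand: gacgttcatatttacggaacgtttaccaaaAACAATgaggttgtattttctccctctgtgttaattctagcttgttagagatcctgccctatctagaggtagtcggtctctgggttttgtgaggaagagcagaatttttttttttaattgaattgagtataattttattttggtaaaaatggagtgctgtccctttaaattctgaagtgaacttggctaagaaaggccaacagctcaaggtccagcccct
Mal, chr2:127656696-127656945, minus strand: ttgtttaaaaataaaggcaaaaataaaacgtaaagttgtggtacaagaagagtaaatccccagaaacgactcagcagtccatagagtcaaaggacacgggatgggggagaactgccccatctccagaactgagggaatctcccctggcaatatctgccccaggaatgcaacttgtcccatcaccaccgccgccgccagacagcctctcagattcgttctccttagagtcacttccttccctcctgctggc
Cldn11, chr3:31149670-31149919, plus strand: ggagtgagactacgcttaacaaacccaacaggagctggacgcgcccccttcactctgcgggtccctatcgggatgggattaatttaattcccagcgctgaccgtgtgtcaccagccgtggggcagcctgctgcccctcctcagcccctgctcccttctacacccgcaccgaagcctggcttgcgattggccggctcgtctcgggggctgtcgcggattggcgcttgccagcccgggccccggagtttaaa
Promoters were listed for 24 of the 32 genes and searched on both strands. A gene counted once if any of its listed promoters matched, whereas the shares of all promoters count single promoters. The member counts and these shares are therefore not on the same base. The E-box CAGATG, bound by bHLH factors such as the Olig proteins, occurred in 9 of the 24 and in 14.4% of all 32851 promoters of this length, and AACAAT, bound by SOX factors, in 5 of the 24 and in 9.42% of all. The single GR site AGAACA occurred in 2 of the 24 (Tspan2 and Gjb1) and in 16.1% of all. The GR palindrome, in which this site and its reverse complement TGTTCT face each other with 3 bases between, was found in 0 of the 24 and in 0.00913% of all. Of the promoters printed, Mal and Cldn11 held no match to any of the 4 motifs, and Opalin and Enpp6 held the 1 match that their capitals mark. The SOX motif also occurred in Hapln2, called higher in both genotypes under the pellet relative to other oligodendrocyte genes. The E-box also occurred in Tspan2 and Gjc3, called higher there in AS mice. A link between the motifs and the split was not tested.

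Mbp, which compacts the inner faces of the myelin membrane, was the most abundant of the 32 genes per transcript length. It had a mean of 231 CPM per kb in acute WT vehicle mice (163 to 333 across mice) and 221 CPM per kb in continuous WT vehicle mice. Cldn11, the tight-junction protein of myelin, followed at 71.8 CPM per kb in the acute experiment, with Mobp at 69.0, Olig1 at 66.5, Mal at 63.4 and Cnp at 58.7 CPM per kb. These 5 neighbours in the order lay within the spread between mice. At the low end were Enpp6, a choline phosphodiesterase of newly formed oligodendrocytes, at 1.28 CPM per kb and Ninj2, an adhesion protein, at 1.25 CPM per kb. The precursor genes lay low as well, with 4.52 CPM per kb for Pdgfra, the PDGF receptor that drives precursor division, and 2.68 CPM per kb for the proteoglycan gene Cspg4 (NG2).

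The mature genes moved together from mouse to mouse within a group, and the precursor genes did not move with them. With group means removed, the median Pearson correlation of log2 CPM over the 435 pairs of mature genes was 0.874 across the 24 acute libraries and 0.948 across the 18 continuous libraries. Over the 60 pairs of a precursor gene and a mature gene it was 0.098 and -0.135, and Pdgfra and Cspg4 correlated at 0.697 and 0.571 with each other. Points share library and dissection, so these values are a description. Gpr17, the receptor that marks committed precursors just before myelination, stood between the classes, with a median correlation to the mature genes of 0.479 in the acute and 0.547 in the continuous libraries. Spread within groups differed in the same way. The SD of log2 CPM was 0.435 (acute) and 0.534 (continuous) for Mbp and 0.549 and 0.701 for Enpp6, but 0.143 and 0.169 for Gpr17, 0.166 and 0.151 for Pdgfra and 0.122 and 0.134 for Cspg4. A difference of the same size was therefore easier to detect in Gpr17 and the precursor genes than in most myelin genes.

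**Figure D1:**
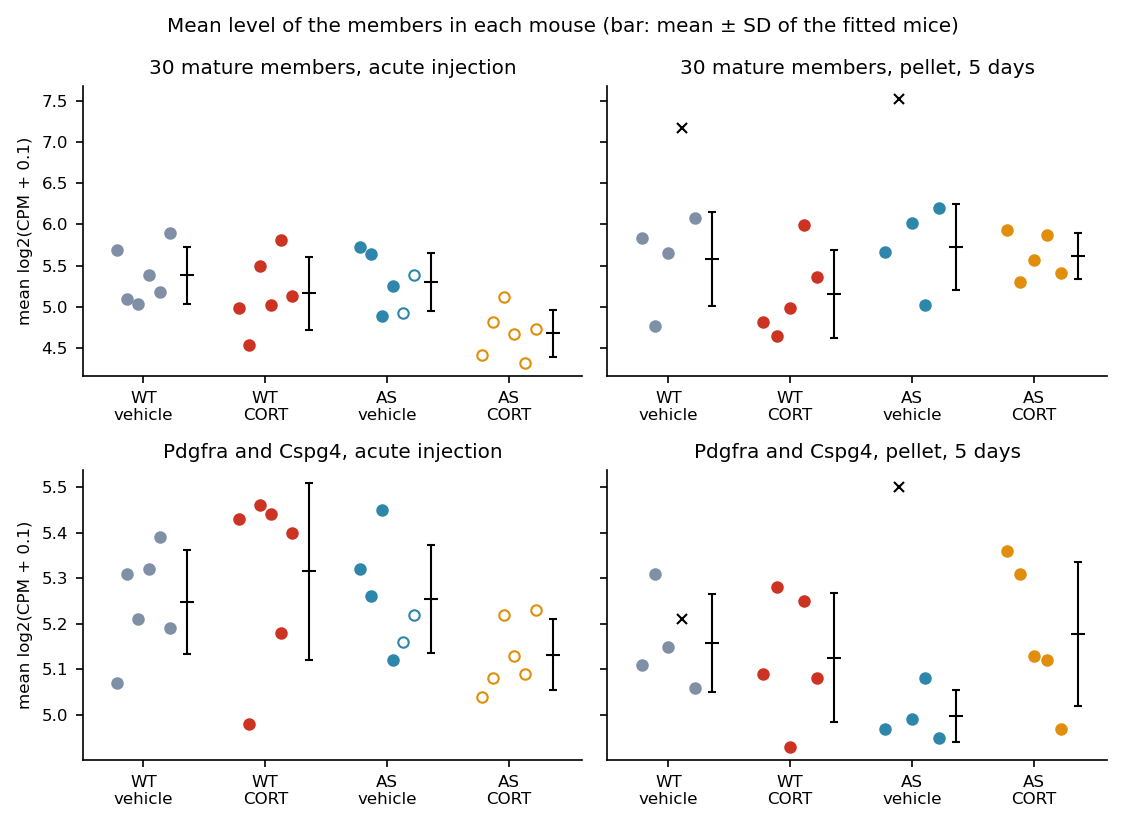
Mean log2(CPM + 0.1) of the 30 mature genes and of the 2 precursor genes (y axis) for each mouse of the 4 groups (x axis) in both experiments, with 1 point per mouse. Open circles are the acute libraries H17 to H24, and crosses are continuous H9 and H13, left out of the fit, whose mature means of 7.52 and 7.17 lie above all other mice.

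The mean log2 level of the 30 mature genes was 5.04 to 5.90 in acute WT vehicle mice (median 5.28), 4.54 to 5.81 in WT CORT mice (median 5.07), 4.89 to 5.73 in AS vehicle mice (median 5.32) and 4.32 to 5.12 in AS CORT mice (median 4.70). The groups overlapped, with the AS CORT mice at the low end. The 2 AS vehicle mice of the library block H17 to H24 stood at 4.93 (H17) and 5.39 (H18), inside the range of 4.89 to 5.73 of the other 4. The precursor mean was 5.07 to 5.39 in WT vehicle, 4.98 to 5.46 in WT CORT, 5.12 to 5.45 in AS vehicle and 5.04 to 5.23 in AS CORT mice, with overlap between all groups.

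In WT mice no oligodendrocyte gene passed the test 3 h after CORT. By edgeR's quasi-likelihood test 0 of 32 had an adjusted p-value under 0.05, where 1.48% of all 14611 genes tested did, and DESeq2 also called 0 (1.94% of all genes). Before adjustment, 4 members had a p-value under 0.05 by edgeR and 6 by DESeq2. The median log2 fold change was -0.16 over the 32 genes and near 0 over all genes (-0.0023), with 23 genes below 0 and 9 above. When each mouse was left out, the median over the 30 mature genes ran from -0.354 (without H11) to -0.0604 (without H6). The smallest p-value belonged to Opalin, a transmembrane protein of central myelin. Opalin was expressed at 15, 18.6 and 25.4 CPM (lowest, median and highest of 6 mice) with vehicle and at 8.43, 10.1 and 19.9 CPM with CORT. Of the 6 CORT mice, 4 lay below every vehicle mouse and 2 lay within the vehicle range (log2 fold change -0.63, SE 0.22, adjusted p = 0.234). Aspa, which cleaves the neuronal metabolite N-acetylaspartate and so provides acetate for myelin lipids, had a log2 fold change of -0.62 in the same comparison.

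Vehicle-treated AS and WT mice did not differ in any of the 32 genes by the test, with 0 called by edgeR and by DESeq2 and 1 at an unadjusted p-value under 0.05 by each, where edgeR called 0.157% and DESeq2 0.678% of all genes. Mbp had medians of 1730 CPM in WT and 1930 CPM in AS vehicle mice. The 1 gene was Gpr17, at 69.3 to 82.4 CPM in WT and 54.9 to 76.0 CPM in AS vehicle mice (log2 fold change -0.19, adjusted p = 0.409). Its lowest AS vehicle mice were H17 and H18, the pair that belongs to the library block. With a term for H17 to H24 edgeR called no member, where 0.151% of all genes were called, and Gpr17 had -0.10 (adjusted p = 0.588).

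In AS mice 17 of the 32 genes fell 3 h after CORT and none rose, in the fit of the 4 groups without a term for H17 to H24. Of all genes tested, 17.9% were called in this comparison and 9.62% were called lower. One of the 17, Ninj2, passed the filter on low counts through the 2 vehicle groups only and was at 0.343 to 0.817 CPM in AS CORT mice, so its count adds no support, and of the 31 other genes 16 fell. The median log2 fold change was -0.64 over the 32 genes and 0.0064 over all genes. By role, 4 of 4 enzymes, 3 of 3 connexin and receptor genes, 3 of 6 transcription factors, 5 of 12 membrane and adhesion genes, 1 of 2 other genes, 1 of 2 precursor genes and 0 of 3 genes of newly formed oligodendrocytes were called.

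Among the transcription factors, Sox10, which is needed at every later step of the lineage, was expressed at 47.9, 62.3 and 87.7 CPM (lowest, median, highest) in AS vehicle mice and at 25, 31.2 and 40.1 CPM in AS CORT mice. The 2 groups did not overlap (log2 fold change -1.06, SE 0.17, adjusted p = 0.00017). Nkx6-2, a homeobox factor of myelinating cells, went from 7.56, 9.45 and 10.9 CPM to 3.67, 4.70 and 6.83 CPM, again without overlap (-0.95, SE 0.19, adjusted p = 0.0015). Myrf, which directly drives myelin genes, went from 56.5, 91.0 and 126 CPM to 41.7, 52.3 and 72.6 CPM, with overlap (-0.78, SE 0.22, adjusted p = 0.016). Olig1 and Olig2, which specify the lineage, did not pass the test, with log2 fold changes of -0.29 (adjusted p = 0.12) and -0.33 (adjusted p = 0.0655). Both overlapped between the groups, and 1 AS CORT mouse, H21, had 147 CPM of Olig1 against 97.2 to 115 in the other 5.

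All 4 enzymes and all 3 connexin and receptor genes were called. Aspa was expressed at 5.15, 9.06 and 13.3 CPM in AS vehicle mice and at 2.67, 4.16 and 5.14 CPM in AS CORT mice (-1.18, SE 0.25, adjusted p = 0.0026). Gjb1, which encodes connexin 32, went from 7.67, 11.6 and 19.2 CPM to 4.21, 5.39 and 6.91 CPM (-1.18, SE 0.27, adjusted p = 0.0042). In neither gene did the groups overlap, though for Aspa the nearest mice lay at 5.14 and 5.15 CPM. Fa2h, which makes the hydroxylated fatty acids of myelin lipids, went from 29, 44.7 and 73.7 CPM to 14.6, 22.4 and 32.7 CPM, with overlap (-1.15, SE 0.265, adjusted p = 0.00464). Carns1, which makes carnosine, went from 5.09, 6.63 and 9.0 CPM to 3.43, 3.95 and 4.24 CPM, without overlap (-0.88, SE 0.20, adjusted p = 0.0049). Gpr37, a receptor of maturing oligodendrocytes, went from 58.7, 73.5 and 97.7 CPM to 39.7, 47.2 and 65.1 CPM, with overlap (-0.60, SE 0.14, adjusted p = 0.0060).

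Of the 12 membrane and adhesion genes 5 were called, Ninj2 among them. Opalin went from 12.7, 18.7 and 26.7 CPM to 6.06, 9.56 and 13.8 CPM, with overlap (-0.96, SE 0.22, adjusted p = 0.0051). Mag, an adhesion molecule between myelin and axon, went from 97.9, 136 and 185 CPM to 62.8, 85.8 and 117 CPM (-0.72, SE 0.22, adjusted p = 0.026). Mbp went from 1270, 1930 and 2590 CPM to 883, 1210 and 1710 CPM (-0.67, SE 0.23, adjusted p = 0.042), with 4 of the 6 CORT mice below the AS vehicle range. Mobp, which supports the compact sheath, did not pass (273, 442 and 520 CPM against 212, 322 and 469 CPM, -0.32, adjusted p = 0.363). Nor did Cnp, an enzyme bound to the membrane of the cytoplasmic channels of myelin (-0.49, adjusted p = 0.0749), Mog, a surface protein of the outer sheath (-0.55, adjusted p = 0.0992), or Bcas1, a protein of early myelinating cells (-0.22, adjusted p = 0.351). Enpp6 had a log2 fold change of -0.58 (adjusted p = 0.152) and Gpr17 of -0.09 (adjusted p = 0.466). The other called members, Tmem125, Ninj2, Gjc3, Ugt8a and Ermn, had log2 fold changes of -0.86 to -0.72, and the other members not called, Cldn11, Mal, Hapln2, Ppp1r14a, Tspan2 and Sox8, of -0.71 to -0.10.

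Of the 2 precursor genes Cspg4 was called and Pdgfra was not, and the difference between them was not tested. Cspg4 was expressed at 28.8, 32.3 and 36.3 CPM in AS vehicle mice and at 24.7, 26.2 and 28.2 CPM in AS CORT mice, without overlap (-0.28, SE 0.07, adjusted p = 0.0094). Pdgfra was at 39.8, 44.0 and 52.4 CPM and at 43.2, 44.6 and 53.1 CPM in the same groups, with nearly complete overlap (0.04, adjusted p = 0.779). Cspg4 is also a gene of pericytes, and the pericyte gene Pdgfrb fell in the same comparison (-0.44). Summed over 5 markers, pericyte expression was 145 to 188 CPM in AS vehicle and 139 to 164 CPM in AS CORT mice, and its part in the Cspg4 result was not tested. Altogether 6 of the 32 genes had AS CORT mice wholly below AS vehicle mice (Cspg4, Sox10, Nkx6-2, Aspa, Carns1 and Gjb1), where 2.99% of all genes tested did.

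When a term for the libraries H17 to H24 was added, 0 of the 32 genes passed the test in AS mice after CORT, where 1.03% of all genes did. The median log2 fold change was -0.47, with 28 genes below 0 and 4 above. Olig1 (-0.29 without and 0.05 with the term), Gpr17 (-0.09 and 0.11) and Sox8 (-0.10 and 0.03) changed sign. At an unadjusted p-value under 0.05 stood 11 of the 32 genes and 1219 of the 14611 genes tested. Sox10 had a log2 fold change of -0.78 (SE 0.22, adjusted p = 0.117), Nkx6-2 of -0.94 (SE 0.26, adjusted p = 0.0949), Aspa of -1.04 (SE 0.345, adjusted p = 0.234), Opalin of -0.88 (SE 0.31, adjusted p = 0.289) and Cspg4 of -0.21 (SE 0.10, adjusted p = 0.563). The CORT effect in AS mice then rests on comparing the 6 CORT mice with H17 and H18. With only these 2 as AS vehicle mice, 0 members were called (0.89% of all genes), 10 had an unadjusted p-value under 0.05 and the median was -0.47. With only the 4 AS vehicle mice outside the block, 19 were called lower (30.3% of all genes were called) and the median was -0.69. In WT mice 0 were called with the term as without it, and the number at an unadjusted p-value under 0.05 went from 4 to 5, where 1.62% of all genes were called.

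**Figure D2:**
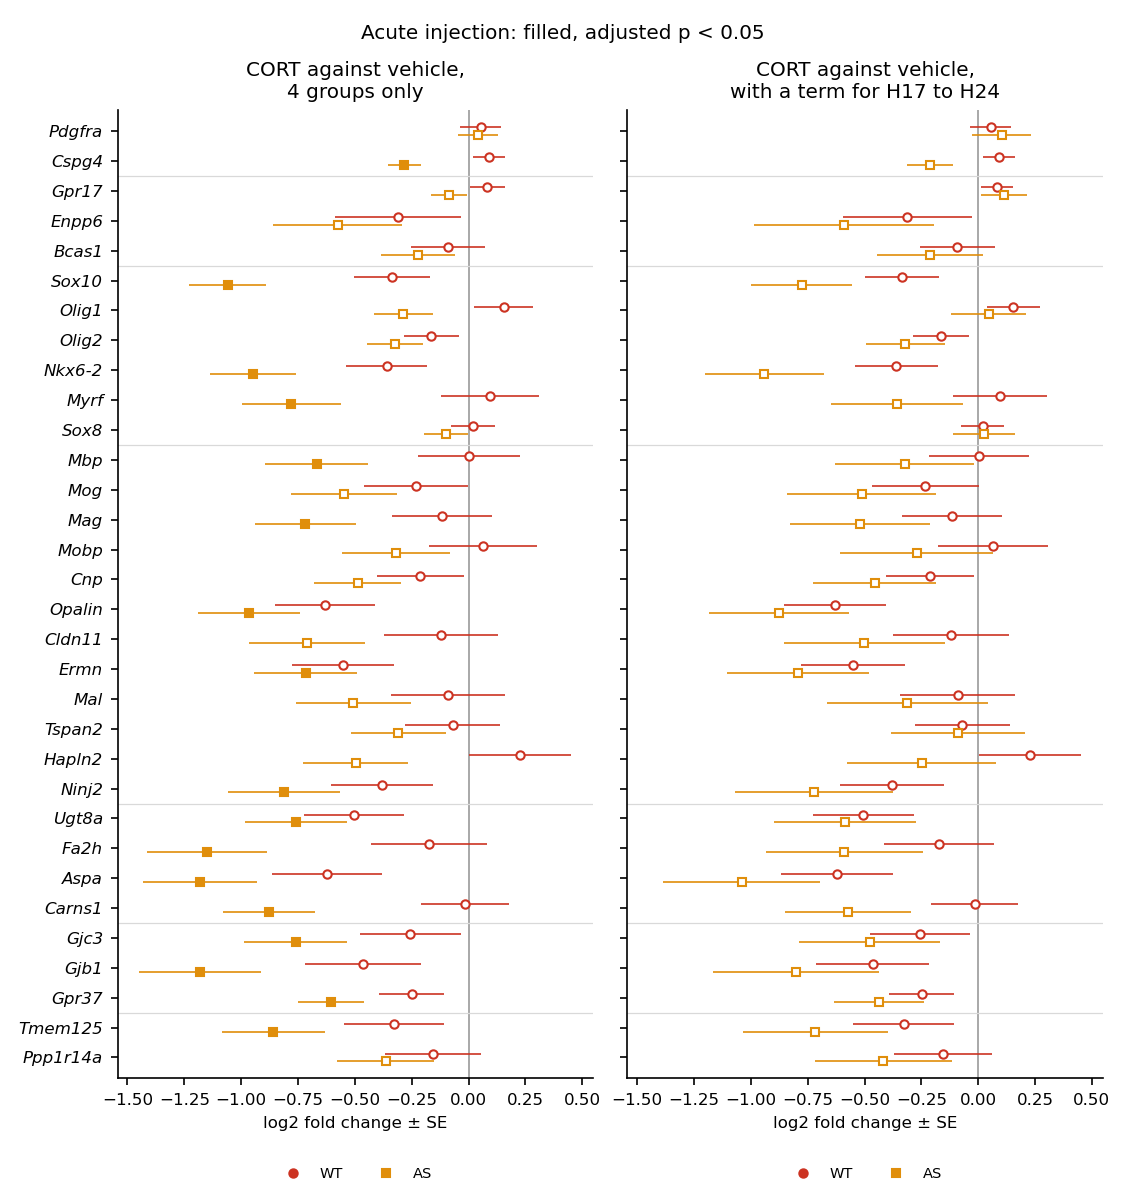
Log2 fold changes of CORT against vehicle (x axis) for the 32 genes (y axis) in acute WT and AS mice, fitted with the 4 groups only (left) and with a term for the libraries H17 to H24 (right). Bars are standard errors and filled points have an adjusted p-value under 0.05: 17 genes in AS mice on the left, 0 on the right, and 0 in WT mice on both.

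AS and WT mice given CORT were also compared, a comparison that shares its AS CORT mice with the one above. Without the term, 14 of the 32 genes were lower in AS mice and none was higher, where 24.9% of all genes were called and 13.2% were called lower. Cspg4 was at 28.2, 35.4 and 37.4 CPM in WT CORT mice, above 24.7 to 28.2 CPM in AS CORT mice with the nearest mice touching (log2 fold change -0.36, SE 0.07, adjusted p = 0.0010). Gpr17 was at 68.1, 83.4 and 90.9 CPM in WT CORT and at 56.6, 63.8 and 71.6 CPM in AS CORT mice, with overlap (-0.36, SE 0.08, adjusted p = 0.0021). Sox10 (36.7 to 74.5 against 25 to 40.1 CPM, -0.73, SE 0.17, adjusted p = 0.0033), Fa2h (22 to 82.4 against 14.6 to 32.7 CPM, -1.06, SE 0.265, adjusted p = 0.00574) and Myrf (50.4 to 151 against 41.7 to 72.6 CPM, -0.84, SE 0.22, adjusted p = 0.0073) were also lower. Olig1 was lower as well, at 130, 152 and 210 against 97.2, 112 and 147 CPM (-0.49, SE 0.13, adjusted p = 0.0085), and so were Nkx6-2 and Hapln2, which encodes a link protein of the matrix at nodes of Ranvier (-0.76 with adjusted p = 0.0060 and -0.81 with adjusted p = 0.012). No member had groups without overlap, where 6.47% of all genes had AS CORT mice wholly below WT CORT mice. With the term for H17 to H24, 0 of 32 were called and 1 had an unadjusted p-value under 0.05, where 0.0% of all genes were called. Since all AS CORT libraries and no WT library belong to that block, the library block and the genotype cannot be told apart among CORT mice.

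The interaction asks whether CORT acted differently in the 2 genotypes and is negative where the log2 fold change was lower in AS mice. It was called for Cspg4 alone of the 32 (-0.37, SE 0.10, adjusted p = 0.040, edgeR), where 4.49% of all genes were called, and for Cspg4, Sox10 and Carns1 by DESeq2, which called 7.82% of all genes. Sox10 had an interaction of -0.73 (SE 0.24, adjusted p = 0.0709) by edgeR. The estimate was below 0 for 32 of 32 genes. With the term for H17 to H24 none was called, 29 estimates were below 0 and 3 above (Pdgfra at 0.0484, Gpr17 at 0.0309 and Sox8 at 0.0049), and Cspg4 stood at -0.30 (adjusted p = 0.891), where 0.00684% of all genes were called.

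Some genes of other cells and steps were also called in the acute AS comparison without the term, where 17.9% of all genes were called and 9.62% were called lower. With the term 1.03% of all genes were called. Counts near these shares, such as 1 of 5, say little about a cell type. Of the 15 other mature oligodendrocyte genes 10 were lower (median -0.62), among them Pllp and Gal3st1, and of 8 other precursor genes 2 were lower (C1ql1 at -0.35 and Cacng4 at -0.25). Of 10 genes of sterol and fatty acid synthesis, which supply myelin lipid, 3 were lower, among them Elovl7 and Scd1. Outside the lineage, 2 of 5 endothelial markers (Kdr at -0.90 and Cldn5 at -0.51), 2 of 5 microglial markers (Cx3cr1 at -0.48 and P2ry12 at -0.25) and 1 of 5 neuronal markers (Slc17a7 at -0.33) were lower. Higher were 1 of 5 astrocytic markers (Aldh1l1) and 1 of the 5 endothelial markers (Ly6c1), and summed astrocytic markers were at 1020 to 1180 CPM in AS vehicle and 1130 to 1250 CPM in AS CORT mice. Summed endothelial markers were at 122 to 151 CPM in AS vehicle and 106 to 122 CPM in AS CORT mice, microglial markers at 215 to 288 and 202 to 249 CPM, and neuronal markers at 6020 to 6870 and 5440 to 6770 CPM. Their part in the values of the oligodendrocyte genes was not tested. With the term for H17 to H24, none of the 15 other mature genes (median -0.46), of the 8 precursor genes, of the 10 sterol and fatty acid genes or of the astrocytic, microglial and neuronal markers was called. Pllp then had a log2 fold change of -0.51 (adjusted p = 0.529), Cx3cr1 of -0.35 (adjusted p = 0.0547) and Slc17a7 of -0.087 (adjusted p = 0.926). Of the endothelial markers Kdr stayed called (-0.78, adjusted p = 0.0283) and Cldn5 did not (-0.35, adjusted p = 0.657).

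Under the 5-day pellet a different gene led. Gpr17 fell in both genotypes without overlap between CORT and vehicle mice, and Opalin fell in both with overlap in AS and WT mice alike, whereas the precursor genes Pdgfra and Cspg4 and the abundant myelin genes Mbp and Mobp did not pass the test. In WT mice 2 of 32 genes were called, both lower, where 2.92% of all 14949 genes were called and 2.11% were called lower. In AS mice it was again 2 of 32, both lower, where 3.77% of all genes were called and 1.75% were called lower. DESeq2 also called 2 of 32 in each genotype, and 4.07% of all genes in WT and 5.1% in AS mice. A count of 2 says little against these backgrounds, so the values of the genes follow.

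Gpr17 (ENSMUSG00000052229, chromosome 18 from 31942997 to 31949636, minus strand, GRCm38) was expressed at 63.7, 61.8, 63.7 and 65.5 CPM in the 4 WT vehicle mice and at 26.7, 33.8, 26.5, 34.0 and 35.3 CPM in the 5 WT CORT mice. In AS mice it was at 53.3, 69.3, 51.7 and 63.9 CPM with vehicle and at 37.5, 31.7, 28.0, 35.0 and 30.9 CPM with CORT. Every CORT mouse of either genotype lay below every vehicle mouse. The log2 fold change was -1.04 in WT mice (SE 0.10, adjusted p = 7.87e-06), which is 51.4% lower, and -0.87 in AS mice (SE 0.10, adjusted p = 3.44e-05). Gpr17 was the only member without overlap in either genotype, where 3.2% of all genes in WT and 3.17% in AS mice had CORT mice wholly below vehicle mice. Lims2 overlaps Gpr17 on the opposite strand, and since the counting strand is not given in the sources used here, reads of the 2 genes may not be fully separated. In the acute experiment Gpr17 had log2 fold changes of 0.08 in WT mice and -0.09 in AS mice, neither of them called.

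Opalin (ENSMUSG00000050121, chromosome 19 from 41061710 to 41077113, minus strand) was expressed at 38.9, 13.6, 28.3 and 45.2 CPM in WT vehicle mice and at 10.6, 7.67, 11.2, 18.5 and 10.9 CPM in WT CORT mice. In AS mice it was at 31.8, 43.0, 17.4 and 51.3 CPM with vehicle and at 19.7, 11, 20.5, 16 and 11.8 CPM with CORT. In each genotype 1 low vehicle mouse, H4 or H14, fell inside the range of the CORT mice and the other vehicle mice lay above it. The log2 fold change was -1.43 in WT mice (SE 0.33, adjusted p = 0.023) and -1.19 in AS mice (SE 0.32, adjusted p = 0.047). Both calls are close to the threshold. Neither passed with all 20 mice (adjusted p = 0.0616 in WT and 0.0797 in AS mice) or without the choroid-rich libraries H6 and H17 (0.199 and 0.0513).

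Enpp6, the other gene of newly formed cells with a large estimate, was at 10.1, 4.23, 10.3 and 13.8 CPM in WT vehicle and at 2.53, 1.60, 2.33, 8.21 and 4.31 CPM in WT CORT mice. The AS mice had 9.61, 12.1, 4.98 and 16.2 CPM with vehicle and 6.17, 3.68, 5.64, 7.46 and 4.49 CPM with CORT. The groups overlapped through the low vehicle mice H4 in WT and H14 in AS mice, and the log2 fold changes of -1.34 (SE 0.41, adjusted p = 0.0926) and -0.97 (SE 0.40, adjusted p = 0.231) did not pass. Bcas1 had log2 fold changes of -0.72 (adjusted p = 0.239) and -0.49 (adjusted p = 0.487). Enpp6 and Bcas1 overlap transcripts on the opposite strand as well.

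**Figure D3:**
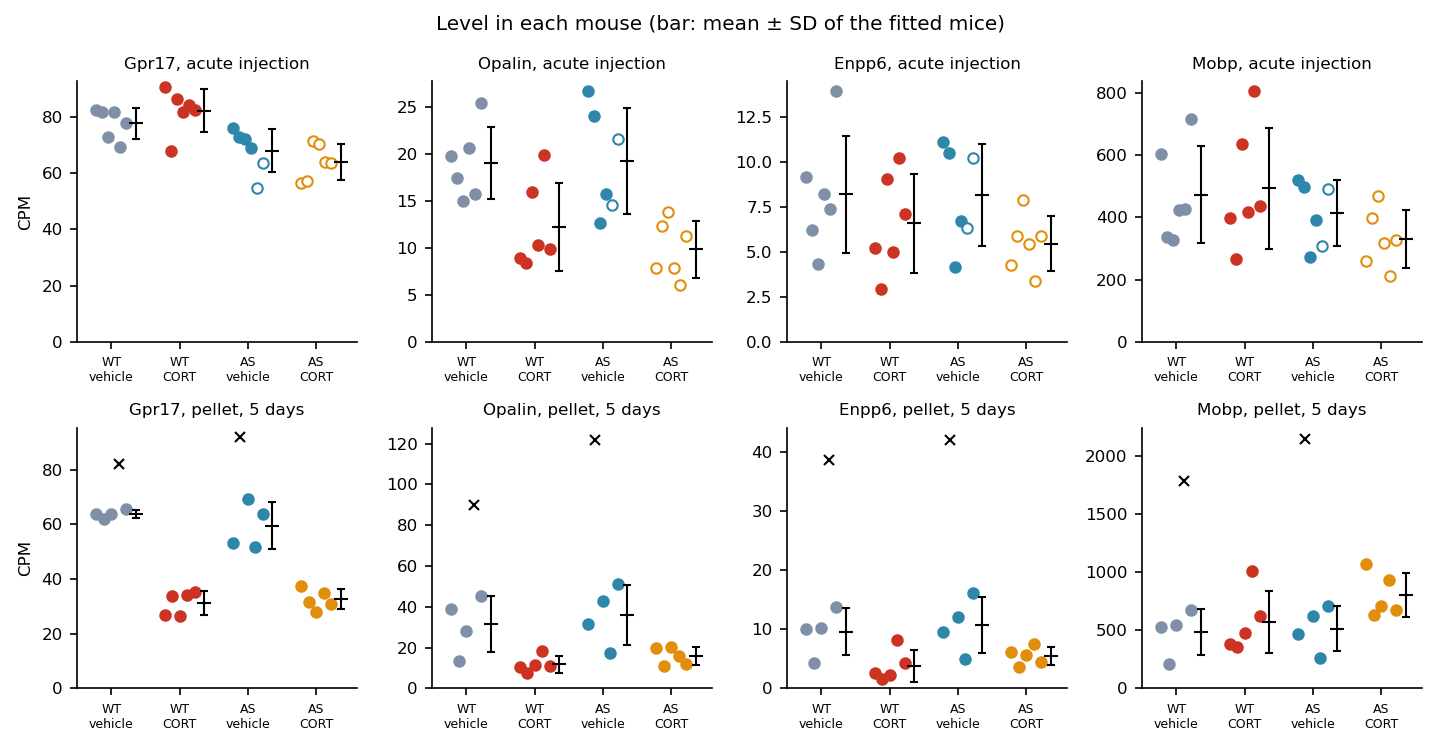
CPM (y axis) of Gpr17, Opalin, Enpp6 and Mobp in each mouse of the 4 groups (x axis) of both experiments, with 1 point per mouse, open circles for the acute libraries H17 to H24 and a bar for the mean and SD of the fitted mice. Under the pellet Gpr17 lay at 51.7 to 69.3 CPM in the fitted vehicle mice, at 92.0 and 82.1 CPM in H9 and H13 (crosses, outside the fit) and at 26.5 to 37.5 CPM in CORT mice of both genotypes, whereas the ranges of Mobp overlapped.

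The precursor genes stayed within the spread between mice. Pdgfra was at 57.8, 65.1, 52.5 and 53.1 CPM in WT vehicle and at 55.3, 61.1, 49.2, 55.8 and 50.1 CPM in WT CORT mice (log2 fold change -0.08), and at 48.0, 48.6, 55.8 and 47.6 CPM in AS vehicle and 67.4, 61.0, 51.3, 55.2 and 47.5 CPM in AS CORT mice (0.17, adjusted p = 0.413). Cspg4 was at 18.9 to 25.8 CPM in all 18 mice, with log2 fold changes of 0.01 in WT and 0.19 in AS mice (adjusted p = 0.293). The other precursor genes gave a different count, with 5 of 8 lower in WT mice (Lhfpl3 at -0.45, Bmp4 at -1.40, Ptprz1, Cacng4 and C1ql1) and 1 of 8 in AS mice (C1ql1). Of all genes, 2.11% were called lower in WT and 1.75% in AS mice. Bmp4, a growth factor gene that is high in committed precursors, had -1.11 in AS mice (adjusted p = 0.0515).

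Of the mature myelin genes Mbp was at 2150, 937, 1830 and 2580 CPM in WT vehicle mice and at 1040, 973, 1300, 2500 and 1650 CPM in WT CORT mice, and at 2050, 2540, 1110 and 2870 CPM in AS vehicle and 2620, 1520, 1880, 2290 and 1650 CPM in AS CORT mice. Mobp was at 526, 207, 541 and 675 CPM in WT vehicle mice and at 380, 359, 478, 1010 and 618 CPM in WT CORT mice, and at 464, 623, 259 and 703 CPM in AS vehicle and 1070, 627, 711, 933 and 676 CPM in AS CORT mice. CORT and vehicle mice overlapped for both genes in both genotypes, and H4, the WT vehicle mouse with the lowest Mbp, was also the lowest of its group in Mobp, as H14 was among AS vehicle mice. Log2 fold changes were -0.34 (adjusted p = 0.682) for Mbp and 0.22 (adjusted p = 0.839) for Mobp in WT mice, and 0.65 (adjusted p = 0.395) for Mobp in AS mice. Sox10 had -0.39 in WT mice (adjusted p = 0.49). Over the 30 members that were not called, log2 fold changes ran from -1.34 (Enpp6) to 0.40 (Hapln2) in WT mice and from -0.97 (Enpp6) to 0.70 (Hapln2) in AS mice. The median over the 30 mature genes was -0.40 in WT and -0.11 in AS mice, against -0.04 and 0.18 for the 2 precursor genes and 0.0034 for all genes in WT mice. Single mice moved these medians. The WT median ran from -0.622 (without H15) to -0.215 (without H17), and the AS median from -0.322 (without H14) to 0.0302 (without H19), a change of sign. Without both H6 and H17 the WT median was -0.16.

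AS and WT mice did not differ in the 32 genes in the continuous experiment by the test. With vehicle, edgeR and DESeq2 called 0 and found 0 at an unadjusted p-value under 0.05, where they called 0.0134% and 0.12% of all genes. With CORT both called 0 and found 1 at an unadjusted p-value under 0.05 (Carns1 by edgeR), where they called 0.0401% and 0.294% of all genes, and 32 of 32 estimates lay above 0 with a median of 0.42. Over the 30 mature genes that median ran from 0.297 (without H5) to 0.691 (without H15). The interaction was called for 0 members and 0.0% of all genes by both tools, with 0 at an unadjusted p-value under 0.05 by edgeR and 32 of 32 estimates above 0. For Gpr17 it was 0.165 (SE 0.146, adjusted p = 1.0). The mature genes move together between mice, so their signs are not independent of each other.

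Because the amount of myelin RNA differed so much between mice, the fits were repeated with a covariate, the mean log2 CPM of the 15 other mature oligodendrocyte genes in each library, a choice made after the values were seen. A value then says how a gene changed relative to those 15 genes, 2 of which (Pllp and Car2) themselves fell in WT pellet mice and 1 (Pllp) in AS pellet mice. Relative to them the pellet split the oligodendrocyte genes in 2 directions. In WT mice 9 members were higher and 3 lower, where 4.57% of all genes were called (1.92% higher and 2.65% lower), and in AS mice 13 were higher and 3 lower, where 7.26% were called (4.03% higher and 3.22% lower). All 9 and all 3 of the WT mice were among those of the AS mice. These are separate animals, but a single fit with a shared covariate slope and spread gave both comparisons. The overlap is therefore not independent support.

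Higher in both genotypes were Mobp (0.84, SE 0.07, adjusted p = 1.04e-06 in WT and 1.08, SE 0.07, adjusted p = 6.72e-09 in AS mice), Mal, a proteolipid of membrane sorting (0.73 and 0.98), Hapln2 (0.87 and 1.05), Cldn11 (0.56 and 0.87), Nkx6-2 (0.57 and 0.67), Myrf (0.30 and 0.44), Mbp (0.22, adjusted p = 0.036, and 0.28, adjusted p = 0.0036), Fa2h and Ermn, which encodes a cytoskeletal protein of late myelination. Mog, Gjc3, Carns1 and Tspan2 were called higher in AS mice and not in WT mice, and the interaction was not called for any of them. Lower in both were Gpr17 (-0.94, SE 0.09, adjusted p = 4.31e-06 and -0.81, adjusted p = 8.83e-06), Opalin (-0.80, SE 0.14, adjusted p = 0.0017 and -0.77, SE 0.125, adjusted p = 0.000531) and Enpp6 (-0.70, SE 0.12, adjusted p = 0.0013 and -0.46, SE 0.11, adjusted p = 0.013). The promoters of Opalin and Enpp6 against those of Mal and Cldn11 are printed above, and the motif matches in them are a description only. With the covariate no member was called between AS and WT mice with vehicle (0.0268% of all genes), with CORT (0.0803%) or in the interaction (0.0%).

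**Figure D4:**
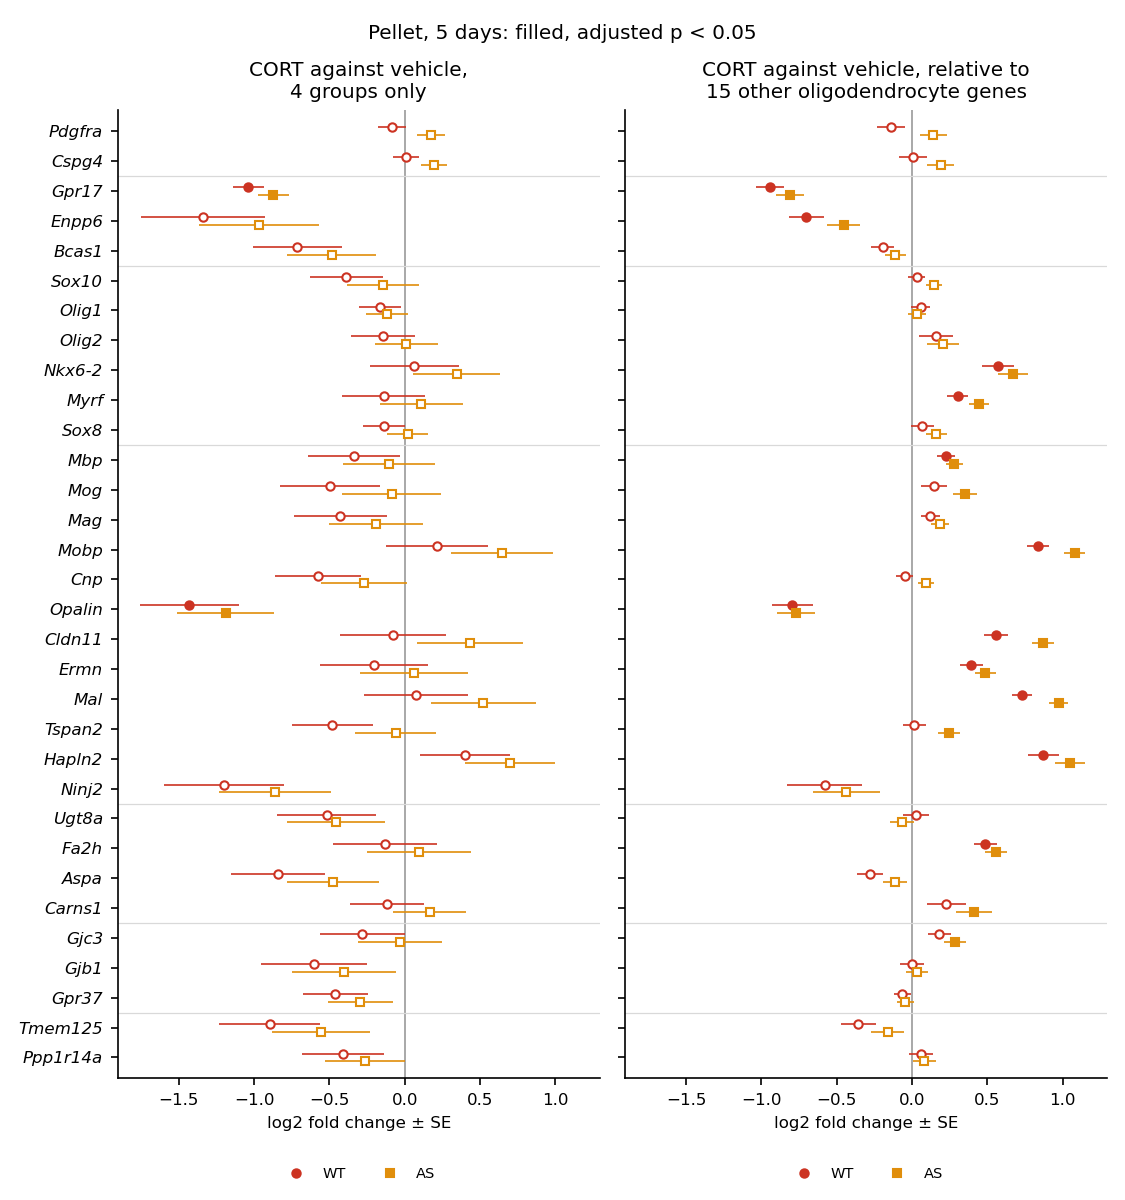
Log2 fold changes of pellet CORT against vehicle (x axis) for the 32 genes (y axis) in WT and AS mice, fitted with the 4 groups only (left) and relative to the mean of 15 other oligodendrocyte genes (right). Bars are standard errors and filled points have an adjusted p-value under 0.05: 2 genes per genotype on the left, and 12 in WT and 16 in AS mice on the right.

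The split was also present with other sets of libraries. With the 15 genes but without the choroid-rich H6 and H17 it was 7 and 3 in WT and 12 and 3 in AS mice (2.85% and 6.76% of all genes), and with H9 and H13 added 8 and 3 in WT and 10 and 3 in AS mice (1.55% and 2.86%). In each of these fits the lower genes were Gpr17, Opalin and Enpp6. Leaving out each mouse in turn gave 8 to 9 higher and 3 to 4 lower genes in WT mice and 10 to 14 higher and 2 to 3 lower genes in AS mice. The share of all genes called was not kept for these fits, so their counts have no background. Some calls depended on single mice. In AS mice Enpp6 and Mog were lost without H14, Gjc3 was called in 15 of the 18 fits, Carns1 in 10 and Tspan2 in 8. In WT mice Myrf was lost without H15, and Mbp was called in 10 of the 18 fits.

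The reference also set which genes were called. With the log2 CPM of Mbp itself as covariate, chosen after the values were seen, 5 members were higher and 8 lower in WT pellet mice (4.79% of all genes were called) and 5 were higher and 10 lower in AS pellet mice (6.43% of all genes). The 5 were Mobp (0.59 in WT and 0.77 in AS mice), Mal (0.47 and 0.66), Hapln2 (0.67 and 0.80), Cldn11 (0.30 and 0.55) and Nkx6-2 (0.37 and 0.41) in both genotypes. Gpr17 (-0.98 and -0.86), Opalin (-1.03 and -1.05) and Enpp6 (-0.99 and -0.82) were again lower. Those 8 genes were called in the same direction with either reference, and Bcas1, Aspa, Cnp, Tmem125 and Gpr37 were called lower in both genotypes relative to Mbp and not relative to the 15 genes. Fa2h (adjusted p = 0.142 and 0.0976), Ermn (0.466 and 0.34) and Myrf were not called higher relative to Mbp.

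The same split can be read from each mouse without a model, as the Opalin level in percent of the Mobp level, a pair chosen after the values were seen and given without a test. Under vehicle pellets Opalin stood at 7.4, 6.57, 5.23 and 6.69% of Mobp in WT mice and at 6.85, 6.91, 6.73 and 7.30% in AS mice. Under CORT pellets it stood at 2.79, 2.13, 2.34, 1.82 and 1.77% in WT mice and at 1.84, 1.76, 2.89, 1.72 and 1.74% in AS mice. The 2 treatments were far apart in both genotypes, although total myelin RNA overlapped. H9 and H13, whose summed mature genes reached 17470 and 13800 CPM against 2243 to 6471 CPM in the mice of the fit, stood at 5.71 and 5.05%, on the side of the other vehicle mice.

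Acute mice gave the same order by smaller steps. Opalin stood at 3.27 to 5.16% of Mobp in WT vehicle mice (median 4.14) and at 2.23 to 3.18% in WT CORT mice (median 2.47), and at 4.04 to 5.15% in AS vehicle mice (median 4.71) and 2.46 to 3.46% in AS CORT mice (median 2.97). CORT and vehicle mice did not overlap in either genotype. H17 and H18, the vehicle mice of the library block, stood at 4.75 and 4.40%, among the other vehicle mice. Other ratios differed between the 2 sets of AS vehicle mice. Opalin per 1000 CPM of Mbp was 7.75 to 10.4 CPM in H13 to H16 and 11.5 to 11.9 CPM in H17 and H18. Mobp over Mbp was 0.184 to 0.202 in H13 to H16 and 0.242 and 0.270 in H17 and H18, beside 0.240 to 0.290 in AS CORT mice. The part of the library block in these ratios was not tested.

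**Figure D5:**
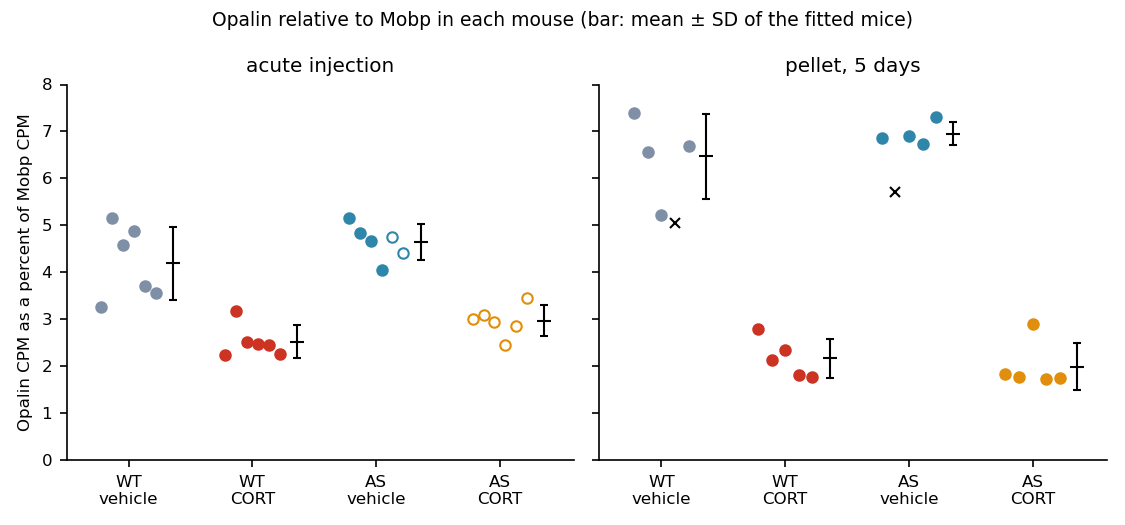
Opalin in percent of Mobp (CPM over CPM, y axis) in each mouse of the 4 groups (x axis) of both experiments, with 1 point per mouse. Crosses are continuous H9 and H13, and open circles are acute H17 to H24. Vehicle mice lie at 3.27 to 5.16% in the acute and, crosses included, 5.05 to 7.4% in the continuous experiment, and CORT mice at 2.23 to 3.46% and 1.72 to 2.89%.

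Over all 435 ratios of 2 mature genes, the share that separated CORT from vehicle mice without overlap was 12% (52 pairs) in acute WT mice, 19.5% (85 pairs) in acute AS mice, 34.0% (148 pairs) in WT pellet mice and 55.9% (243 pairs) in AS pellet mice. Over all pairs of tested genes above 0 in every library (14600 acute and 14943 continuous genes) the same shares were 1.33%, 6.1%, 6.35% and 7.61%. The acute groups held 6 and 6 mice and the pellet groups 4 and 5, so shares are not compared between the experiments. Pairs share genes and the mature genes vary together between mice, so these shares are a description. AS and WT mice of 1 treatment were separated by 2 pairs with vehicle and 8 with CORT in the continuous experiment and by 3 and 28 in the acute one (0.46% and 1.84%, and 0.69% and 6.44%), where 3.81% and 2.22%, and 0.738% and 9.24%, of all pairs did. In all 4 comparisons of CORT with vehicle 8 pairs were separated in the same direction: Opalin decreased against Bcas1, Cnp, Mobp and Ppp1r14a, Gjb1 against Hapln2 and Mobp, and Aspa against Mobp and Tspan2. The share of all gene pairs separated in all 4 was not computed, so the count of 8 has no background. Gpr17 per Pdgfra, which sets committed precursors against all precursors, was 0.926 to 1.43 in vehicle and 0.483 to 0.704 in CORT pellet mice. In acute mice this ratio overlapped between treatments. It was 1.41 to 2.16 in WT vehicle and 1.64 to 1.98 in WT CORT mice. In acute AS mice it was 1.24 to 1.74 with vehicle and 1.2 to 1.63 with CORT.

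With the covariate of 15 genes, the acute WT mice showed 7 members higher and 0 lower 3 h after CORT, where 2.05% of all genes were called: Hapln2 (0.55, SE 0.09, adjusted p = 0.00038), Mbp (0.34, SE 0.06, adjusted p = 0.00077), Mobp (0.41, SE 0.07, adjusted p = 0.00115), Myrf (0.40, SE 0.08, adjusted p = 0.0038), Mal (0.27), Cldn11 (0.27) and Mag (0.21). Opalin stood at -0.35 (adjusted p = 0.0582). With Mbp as the reference none was higher and 8 were lower in acute WT mice, where 2.11% of all genes were called, among them Aspa (-0.62, adjusted p = 0.00075), Opalin (-0.66, adjusted p = 0.00095) and Gjb1 (-0.48). Apart from Mbp, now the reference, none of the 7 genes was called higher, so those calls hold for the reference of 15 genes and not for Mbp. In acute AS mice 5 were higher (Mobp at 0.57, Mal at 0.48, Tspan2, Bcas1 and Sox8) and Sox10 was lower (-0.44, SE 0.08, adjusted p = 0.0021), where 2.92% of all genes were called. The reference was itself lower with CORT here. The mean log2 CPM of the 15 genes was 4.927 to 5.635 in AS vehicle and 4.383 to 5.02 in AS CORT mice. A gene that fell less than they did therefore comes out higher. When the term for H17 to H24 was added as well, Mal (0.40, adjusted p = 0.013) and Mobp (0.40, adjusted p = 0.015) stayed called in AS mice, where 1.14% of all genes were, and Sox10 did not (-0.34, adjusted p = 0.0838). The WT mice then had 8 higher members, where 2.27% of all genes were called. With Mbp as the reference and no term, Mobp was higher in AS mice (0.32, adjusted p = 0.039) and Sox10, Fa2h, Nkx6-2, Aspa and Gjb1 were lower, where 4.72% of all genes were called.

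Some genes of other cells and steps were also called under the pellet, in the fit of the groups alone. Of all genes, 2.92% were called in WT mice (2.11% lower) and 3.77% in AS mice (1.75% lower). Of the 15 other mature genes, Pllp fell in both genotypes (-1.07 and -0.89) and Car2 in WT mice. Of 10 genes of sterol and fatty acid synthesis, 1 fell in WT mice (Hmgcs1) and 3 in AS mice, among them Hmgcs1 and Sqle. Among markers of other cells, 3 of 5 astrocytic (Aqp4, Gfap and Gja1), 2 of 5 microglial (P2ry12 and Cx3cr1) and 3 of 5 pericyte genes (Vtn, Pdgfrb and Rgs5) were lower in both genotypes, 2 of 5 endothelial genes (Kdr and Cldn5) in AS mice and 0 of 5 neuronal genes in either. Summed astrocytic markers were at 1350 to 1530 CPM in WT vehicle and 983 to 1160 CPM in WT CORT mice, and at 1230 to 1330 and 1000 to 1170 CPM in AS mice. Microglial markers were at 251 to 281 and 213 to 240 CPM in WT and at 232 to 261 and 210 to 236 CPM in AS mice. The part of these cells in the values of Gpr17, Opalin and Enpp6 was not tested.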

How the data were processed

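The authors sequenced stranded mRNA libraries in paired ends, aligned the reads to mm10 with STAR and counted them per gene with HTSeq-count within BioWDL, after FastQC and MultiQC. They deposited raw read counts per gene, without normalization. The annotation release and the counting strand are not given in the sources used here, so genes that overlap another gene are uncertain. Reads on no gene (14.4% in the acute and 12.2% in the continuous hippocampus) were left out.

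Symbols, positions and exon lengths came from GENCODE M21 on GRCm38, and promoters from RefSeq. Genes entered the test when 3 or more mice of any group exceeded 20 normalized counts, as in the study, and were tested with the quasi-likelihood test of edgeR 4.0.16 (R 4.3.3, TMM, 1 coefficient per group) on the 24 acute and 18 continuous hippocampal libraries. P-values were adjusted by Benjamini-Hochberg over all genes tested, with 0.05 as threshold. CPM values are TMM-normalized over all libraries of an experiment, and means of log2 values used a pseudocount of 0.1 CPM. The separate mice are the replicates. The rule for genes given with values was a set of 15 (Sox10, Olig1, Olig2, Myrf, Mbp, Mog, Mag, Mobp, Cnp, Opalin, Enpp6, Gpr17, Bcas1, Pdgfra and Cspg4) plus the 8 called members with the smallest p-values per comparison.

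Alternatives were the Wald test and size factors of DESeq2 1.42.0, upper-quartile normalization, no filter, fits of only the 2 groups compared, an adjusted p-value under 0.01, a term for acute H17 to H24, either side of that division as the only AS vehicle mice, all 20 continuous mice and each mouse left out. The covariates of other oligodendrocyte genes and of Mbp, the fits without continuous H6 and H17 and the ratios were added after the values were seen, and 1 further added covariate is not reported here. The members and lists were chosen with earlier results of these data known. The test was tried on simulated counts first.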

Additional observations from a re-analysis of the deposited data

Results flagged for a closer look

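A single mouse stood apart from the other mice of its group by Dixon's criterion in 5 of 256 groups of CPM values of the 32 genes, where chance alone marks about 1 group in 20. Olig1 was at 147 CPM in the acute AS CORT mouse H21 and at 97.2 to 115 CPM in the other 5 mice of that group. Tspan2, a tetraspanin of maturing oligodendrocytes, was at 124 CPM in the acute WT vehicle mouse H6 and at 65.7 to 87.0 CPM in the others, and Ugt8a, which makes galactosylceramide, was at 44.0 CPM in the same mouse and at 23.2 to 29.7 CPM in the others. H6 is also the acute library with 1060 CPM of choroid plexus markers. Ninj2 was at 1.86 CPM in the acute WT vehicle mouse H1 and at 0.82 to 1.17 CPM in the others. Pdgfra was at 55.8 CPM in the continuous AS vehicle mouse H14 and at 47.6 to 48.6 CPM in the other AS vehicle mice of the fit.

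Over all 20 continuous mice, the summed CPM of the 30 mature genes was 17470 in the AS vehicle mouse H9 and 2623 to 6471 in the other 4 AS vehicle mice. H9 is also the library with 1760 CPM of thalamic markers, and it was outside the fit.

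The acute interaction was called for Cspg4, close to the threshold, at -0.373 on the log2 scale (SE 0.101, adjusted p = 0.0402, edgeR). Its CORT effect was -0.28 in AS and 0.09 in WT mice. With a term for the libraries H17 to H24 it was -0.302 (adjusted p = 0.891).

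In the 20 livers, which no comparison here used, Gjb1 had a median of 861 CPM (719 to 1000), above the floor of 0.144 to 0.161 CPM that 3 counts allow. Connexin 32 is the main gap junction protein of hepatocytes.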

How the results depend on the processing

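The counts of called members depended most on the library block and on the reference. After acute CORT in AS mice, 17 members were called, against 0 with the term for H17 to H24 or with only H17 and H18 as AS vehicle mice, 6 with the covariate of 15 oligodendrocyte genes, 6 with the Mbp covariate, 2 with the 15 genes and the term and 9 at an adjusted p-value under 0.01 (6.36% of all genes). Leaving out each mouse gave 10 (without H14) to 21. Counts from fits that left out a mouse, here and below, are given without the share of all genes called. Between AS and WT mice with acute CORT, 14 were called, against 0 with the term, 5 with the 15 genes (13.2% of all genes), 6 with Mbp (11.2%), 0 with both terms (0.00684%) and 7 at 0.01 (11.7%), and leaving out each mouse gave 8 (without H11) to 21, with 9 without H9, H19, H22 or H23. In acute WT mice the 0 called became 7 with the 15 genes (all higher), 8 with both terms and 8 with Mbp (all lower), and stayed 0 when any mouse was left out. The acute interaction had 1 call, against 3 by DESeq2, 6 with only H13 to H16 as AS vehicle mice (19.2% of all genes), and 0 with the term, with either covariate, with both terms, with only H17 and H18, without the filter or at 0.01. Leaving out each mouse gave 0 to 6, with 6 without H17, 5 without H8, 4 without H6 and 3 without H18, and the Cspg4 call was lost without any of 13 of the others.

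Under the pellet 2 members were called in each genotype. In WT mice there were 12 with the covariate of 15 genes, 10 with that covariate without H6 and H17, 11 with it in all 20 mice, 13 with the Mbp covariate, and 1 with all 20 mice (1.2% of all genes), without H6 and H17 (1.22%) or at 0.01 (1.19%). In AS mice there were 16, 15, 13, 15 and 1 in the same order, the last with 1.47%, 3.66% and 1.82% of all genes called. Leaving out each mouse gave 1 to 6 in WT mice (6 without H15 and 5 without H4) and 1 to 2 in AS mice. Opalin was lost in WT mice without H1, H3, H5, H12, H17 or H20 and in AS mice without 12 of the 18 mice, and Gpr17 was kept throughout.

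Among the called values recomputed under the alternatives, 17 changed sign, all in the acute AS CORT mice. Against AS vehicle mice they were Ermn (0.0859), Ugt8a (0.0865), Myrf (0.053), Mag (0.135), Mbp (0.207) and Gjc3 (0.101) with the covariate of 15 genes, and Ugt8a (0.0179), Fa2h (0.0677), Myrf (0.213), Mag (0.101), Mbp (0.29) and Gjc3 (0.111) with both terms. Against WT CORT mice with both terms they were Fa2h (0.00756), Mbp (0.0867), Olig1 (0.103) and Gjb1 (0.0349), and with Mbp as covariate Cldn11 (0.0308). Members that were not called also turned with the 15 genes, such as Mbp in WT pellet mice (-0.34 to 0.22), Mag (-0.12 to 0.21), Cldn11 (-0.12 to 0.27) and Mal (-0.09 to 0.27) in acute WT and Mobp (-0.32 to 0.57) in acute AS mice. The cause was not tested, although the covariate by construction gives change relative to other oligodendrocyte genes. The other vehicle and pellet comparisons between genotypes stayed at 0 calls under every alternative. Of the single-gene values recomputed without leaving out a mouse, 423 kept their direction and call and 122 kept their direction and lost the call. No paired analysis was possible because each library number occurs once within the hippocampus of an experiment, so the groups share no number. Depth limits Ninj2 most, which had 0.82 to 1.86 CPM in acute WT vehicle mice.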

Other observations

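The 20 livers of the continuous experiment also held reads of some of the 32 genes. Beside Gjb1, the genes with the highest liver levels were Myrf with a median of 45.6 CPM over 20 mice, Cnp with 24.7, Aspa with 10.8, Tmem125 with 6.79, Pdgfra with 6.34 and Ppp1r14a with 5.84 CPM. In contrast, Opalin, Olig2 and Hapln2 had 0 counts in all 20 livers, and Sox10, Gpr17, Nkx6-2, Mog and Ermn had at most 0.0996 CPM in any liver, below the floor.

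Unlike Olig2, Olig1 was detected in every liver, with a median of 1.75 CPM (0.637 to 3.04). Mbp had a median of 1.22 CPM there, against 937 CPM or more in every continuous hippocampus of the fit. No effect of CORT or genotype on these genes was tested in liver.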
